A study of Mus musculus with 5 samples.

Results

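The transcription factor NRF2, encoded by Nfe2l2, activates genes that carry an antioxidant response element, and it does so as a dimer with a small MAF protein. KEAP1 holds NRF2 in the cytoplasm and hands it to a ubiquitin ligase until oxidants or electrophiles modify its cysteines, whereas BACH1 and BACH2 compete with NRF2 for the same elements as repressors. Among the enzymes and carriers that the pathway serves, glutathione synthetase makes glutathione, glutathione reductase returns its oxidised form to the reduced one, and thioredoxin keeps protein thiols reduced. In the subventricular zone, the redox state of neural stem cells is known to bear on their self-renewal and differentiation.

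The 10 genes described here were chosen by name as NRF factors (Nfe2l2 and Nfe2l1), the NRF2 inhibitor (Keap1), repressors (Bach1 and Bach2), small MAF partners (Mafg and Mafk) and thiol recycling genes (Gsr, Gss and Txn1), out of 46078 genes in the table of each library. Each had 1 row in every table, all 10 are protein coding in GENCODE vM21, and all 10 passed a filter at 1 TPM on the mean over libraries, TPM being transcripts of a gene in each 1000000 transcripts, after division by length. The samples were primary neural precursor cells (NPC) of the subventricular zone of C57BL/6 mice, given as female, 5 to 8 weeks old and with no mutation in the labels. The study's methods state an older age and write the strain as C57BL/6j. Cells stood on plates coated with poly-D-lysine and received PBS as a sham exposure for 1 h (2 libraries, replicates 1 and 2) or 8 h (3 libraries, replicates 13, 14 and 15), so neither group was free of the sham exposure, and libraries exposed to H2O2 were not analysed here. The methods define a biological replicate of these cells as 1 animal, and the labels do not tie a library to an animal.

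The libraries went against their labels in part, and this touched the comparison. The labels carry library identifiers in 2 number series. Xist, which is transcribed from the inactive X chromosome of females, had 165.3 and 199.7 TPM in 8 h replicates 13 and 15, which form series 2, and at most 0.0611 TPM in the libraries of series 1, which are both 1 h libraries and 8 h replicate 14. In those 3 libraries 4 genes of the Y chromosome summed to between 137.6 and 180.9 TPM, although all mice were labelled female. Mitochondrial genes took 10.7% to 11.1% of TPM in series 1 and 6.23% and 6.30% in series 2. All 8 neural stem and precursor markers averaged 1 TPM or more and together took 11280 to 14470 TPM per library. Of 7 microglial markers, none reached a mean of 1 TPM and 3, among them Aif1 and C1qa, were listed at 0 throughout, while the 7 oligodendrocyte lineage markers summed to 1639 to 2461 TPM, the 5 neuronal to 212.8 to 459.6 TPM, the 5 endothelial, with Cldn5 and Cdh5 at 0, to 11.8 to 15.4 TPM, and the 4 ependymal, with Tmem212 at 0, to 16.3 to 27.5 TPM. Of these lists, the sums of the microglial (1.31 and 1.49 TPM at the extremes of 1 h, 0.478 to 0.740 TPM at 8 h, nearly all from P2ry12) and the ependymal markers (23.7 to 27.5 TPM at 1 h, 16.3 to 18.8 TPM at 8 h, nearly all from Foxj1) were lower in every 8 h library, as Mafk, Bach1 and Bach2 were, and their part in those results was not tested. The other sums hide shifts of single markers. Among these, Mbp and Tubb3 were lower in every 8 h library and Slc1a3 was higher in every one. Their part was not tested either.

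A separate table of raw read counts held 7599 genes, 8 of the 10 among them (not Bach2 and Mafg), with column totals from 13988166 to 18572154 reads. Its columns were compared with the TPM tables by the share of 7552 genes whose log2 ratio to a 1 h library, after removal of the median, was the same to within 0.1 in both. Each 1 h column matched its own table (76.5%). For 8 h replicate 13 the count column shared 24.3% of the genes with the table of its name and 76.6% with the table of replicate 14. For 8 h replicate 15 the best share was 75.1%, with the table of replicate 13, against 39.2% with its own. For 8 h replicate 14 the highest share was 35.2%, with the table of 1 h replicate 2, with which the column of replicate 13 shared 31.9%. The replicate 14 column shared 23.7%, 24.5% and 20.6% with the tables of 8 h replicates 13, 14 and 15. The table of 8 h replicate 15 was in turn matched by no column, with 39.2% as its highest share. These shares cannot tell whether the columns or the tables carry wrong names. The series follows the names too, so a statement on series for TPM values holds only if those names are right. TPM leads here because it covers all 10 genes, and the counts stand beside it under their column names.

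The comparison of 8 h with 1 h asked how the sham baseline of these genes differed between the time points. Nfe2l2 and Gss were higher throughout the 8 h group than at 1 h, and Mafk, Bach1 and Bach2 were lower throughout it, with Mafk at 0.455 times and Nfe2l2 at 1.52 times its 1 h mean. Keap1, Nfe2l1, Mafg, Gsr and Txn1 had overlapping values. In bulk RNA, fewer cells of a type and less RNA per cell cannot be told apart. A gene was called where its adjusted p was 0.05 or lower and its log2 fold change exceeded 1 in size, and limma called 0 of the 10, against 6 of 13870 genes tested (0.0433%). An unadjusted p under 0.05 was found for 3 of the 10, Nfe2l2 among higher genes (9.52% of all genes tested were higher with such a p) and Mafk and Bach1 among lower genes (2.82%). Groups did not overlap for 2 of the 10 in the higher direction, against 23.7% of all genes, and for 3 in the lower direction, against 9.43%. The median log2 fold change of the 10 was -0.0085, and that of all genes tested was 0.10. In a fit without 8 h replicate 14, 3 of the 10 genes (Nfe2l2, Mafk and Bach1) passed an adjusted p of 0.05, with absolute log2 fold changes below 1, as did 19.9% of all genes. The 8 h libraries then all belong to series 2, so that time and series cannot be told apart.

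**Figure D1:**
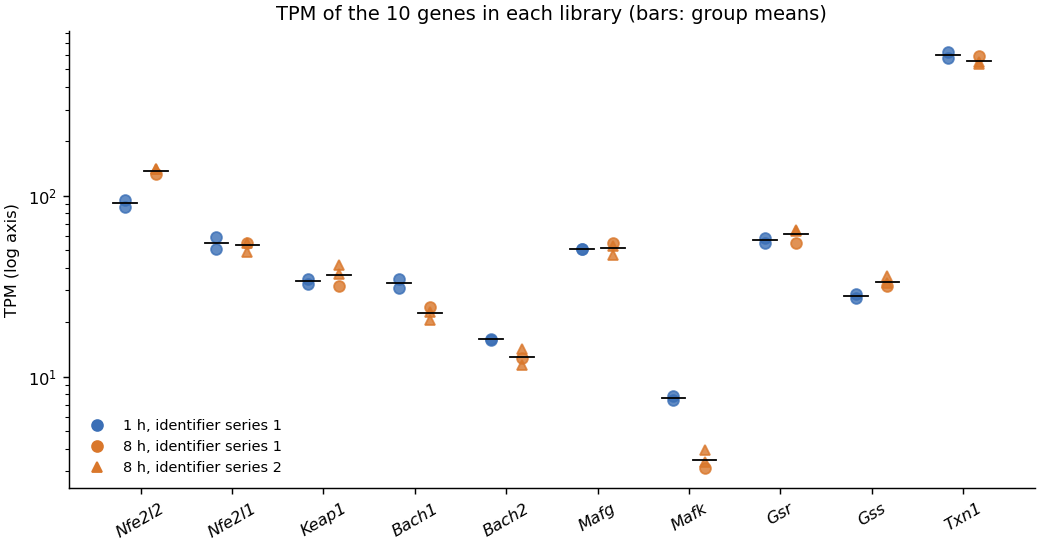
TPM on a log axis for each of the 10 genes, with 1 point per library, blue for 1 h and orange for 8 h, circles for identifier series 1 and triangles for series 2, and bars at the group means. Mafk ranges from 7.45 to 7.83 TPM at 1 h and from 3.14 to 3.94 TPM at 8 h, Nfe2l2 lies higher in every 8 h library, and Txn1 stands above all other genes.

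Nfe2l2 (ENSMUSG00000015839, chromosome 2, 75675513 to 75704641, minus strand, GRCm38) had 95.3 and 86.6 TPM at 1 h, and its 8 h values were 141.3, 131.6 and 141.0 TPM (replicates 13, 14 and 15, the order used throughout). Every 8 h library lay above both 1 h libraries, 8 h replicate 14 as well as the pair of series 2. The means were 90.9 ± 6.19 TPM (SD, n = 2) and 138.0 ± 5.55 TPM (SD, n = 3), and the log2 fold change was 0.60 ± 0.095 (SE, limma, adjusted p = 0.24 over all genes). Within series 1, where all libraries lack Xist, the log2 fold change was 0.53 ± 0.12 (SE, limma, adjusted p = 0.553), and the lone 8 h library is assumed there to vary like the 1 h group. Without 8 h replicate 14 it was 0.63 (limma, adjusted p = 0.0102), and over 11 alternatives adjusted p ranged from 0.0102 to 0.794 (limma). The direction was the same in all of them, but leaving out a library could not turn it, as the groups do not overlap. In the count table the columns held 2327 and 2525 reads at 1 h and 4139, 2405 and 4198 reads in the columns named 8 h replicates 13, 14 and 15. Scaled to the column total, the unmatched column named 8 h replicate 14 stood at 166.2 CPM, level with the 1 h columns at 166.4 and 152.8 CPM, and the other 8 h columns stood at 229.6 and 226.0 CPM. The log2 fold change from counts was 0.35 ± 0.17 (SE, edgeR, adjusted p = 0.966), and 0.50 without that column (edgeR, adjusted p = 0.746). It was 0.0226 with the columns named as series 1 alone (edgeR, adjusted p = 0.938), where the unmatched column is the only one of 8 h, and 0.0230 with the series as a term (edgeR, adjusted p = 0.99).

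Nfe2l1 (ENSMUSG00000038615, chromosome 11, 96817414 to 96829968, minus strand) encodes NRF1, a related factor anchored in the endoplasmic reticulum that is known for driving proteasome genes. It had 58.9 and 50.6 TPM at 1 h, compared with 55.1, 55.1 and 49.1 TPM at 8 h. The 8 h values lay among or just below those at 1 h, and the log2 fold change was -0.041 ± 0.12 (SE, limma, adjusted p = 0.872). The difference between the fold changes of Nfe2l1 and Nfe2l2 can be read within each library as their ratio, which was 0.618 and 0.585 at 1 h and 0.390, 0.419 and 0.348 at 8 h. The groups of this ratio did not overlap, but those of Nfe2l2 alone did not either, so the ratio adds no separate support.

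The relative level of the 2 factors depended on how length was taken. By TPM, Nfe2l2 stood above Nfe2l1 in every library. By reads per kilobase of joined exons in GENCODE vM21, Nfe2l1 had 1065 and 1224 and Nfe2l2 had 613 and 665.2 in the 1 h columns, a ratio of 1.74 and 1.84. GENCODE vM21 annotates 12 transcripts for Nfe2l1 and 2 for Nfe2l2. The ratio of deposited coverage to FPKM (fragments by length and depth), which would be equal for all genes of a library if both averaged over the same bases, was 0.869 to 1.12 for Nfe2l2 and 1.84 to 2.67 for Nfe2l1, against 4.66 to 5.99 at the median gene. The order of these 2 genes is therefore uncertain. With coverage in place of TPM the log2 fold change of Nfe2l2 was 0.61.

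Keap1 (ENSMUSG00000003308, chromosome 9, 21229730 to 21239332, minus strand), the substrate adaptor through which NRF2 is degraded, had 32.6 and 34.6 TPM at 1 h, with 41.5, 31.6 and 36.7 TPM at 8 h. Its groups overlapped, and 8 h replicate 14 was the lowest of all libraries. The log2 fold change was 0.11 ± 0.14 (SE, limma, adjusted p = 0.704), and -0.088 within series 1. In the counts Keap1 had 87.2 and 88.1 CPM at 1 h with 81.8, 95.4 and 99.5 CPM in the 8 h columns (edgeR, adjusted p = 0.979). The ratio of Nfe2l2 to Keap1 in TPM was 2.92 and 2.50 at 1 h and 3.41, 4.17 and 3.84 at 8 h, with the highest value in 8 h replicate 14. Which gene of this pair stood higher depended on the measure. Deposited coverage at 1 h was 36.6 and 39.6 for Nfe2l2 and 51.3 and 66.0 for Keap1. By reads per kilobase the ratio at 1 h was 2.36 and 2.14.

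Bach1 (ENSMUSG00000025612, chromosome 16, 87698945 to 87733346, plus strand), a haem-regulated repressor of NRF2 target genes, had 34.8 and 31.0 TPM at 1 h, and the 8 h libraries had 20.5, 24.4 and 22.9 TPM. All 8 h values lay below those at 1 h. The means were 32.9 ± 2.67 TPM (SD, n = 2) and 22.6 ± 1.95 TPM (SD, n = 3), and the log2 fold change was -0.52 ± 0.13 (SE, limma, adjusted p = 0.296). Within series 1 it was -0.41 ± 0.14 (SE, limma, adjusted p = 0.605), and over 11 alternatives it lay between -0.63 and -0.41 (limma, adjusted p from 0.0235 to 0.794). From counts the value was -0.38 ± 0.22 (SE, edgeR, adjusted p = 0.966). Here too the column named 8 h replicate 14, with 132.5 CPM, stood with the 1 h columns at 134.6 and 127.0 CPM, and the other 8 h columns had 99.0 and 76.6 CPM. Without it the log2 fold change was -0.59 (edgeR, adjusted p = 0.746), and leaving out the one named 8 h replicate 15 gave -0.20 (edgeR, adjusted p = 0.999). With the columns named as series 1 alone, where the unmatched column is the only one of 8 h, it was -0.0168. The series as a term, which rests on the same contrast, gave -0.0165.

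Bach2 (ENSMUSG00000040270, chromosome 4, 32238804 to 32586108, plus strand), the second repressor and best known from lymphocytes, had 15.95 and 16.2 TPM at 1 h, compared with 11.6, 12.6 and 14.3 TPM at 8 h. All 8 h values were again lower, with 8 h replicate 15 nearest to the 1 h libraries, and the log2 fold change was -0.31 ± 0.14 (SE, limma, adjusted p = 0.411). The repressor-to-activator ratio of Bach1 to Nfe2l2 in TPM was 0.365 and 0.358 at 1 h and 0.145, 0.185 and 0.162 at 8 h. By deposited coverage Bach1 stood above Nfe2l2 at 1 h, with 74.0 and 82.8 against 36.6 and 39.6. The order of this pair is therefore uncertain. The ratio of Bach1 to Bach2 overlapped between groups, with 2.18 and 1.92 at 1 h and 1.78, 1.93 and 1.60 at 8 h.

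**Figure D2:**
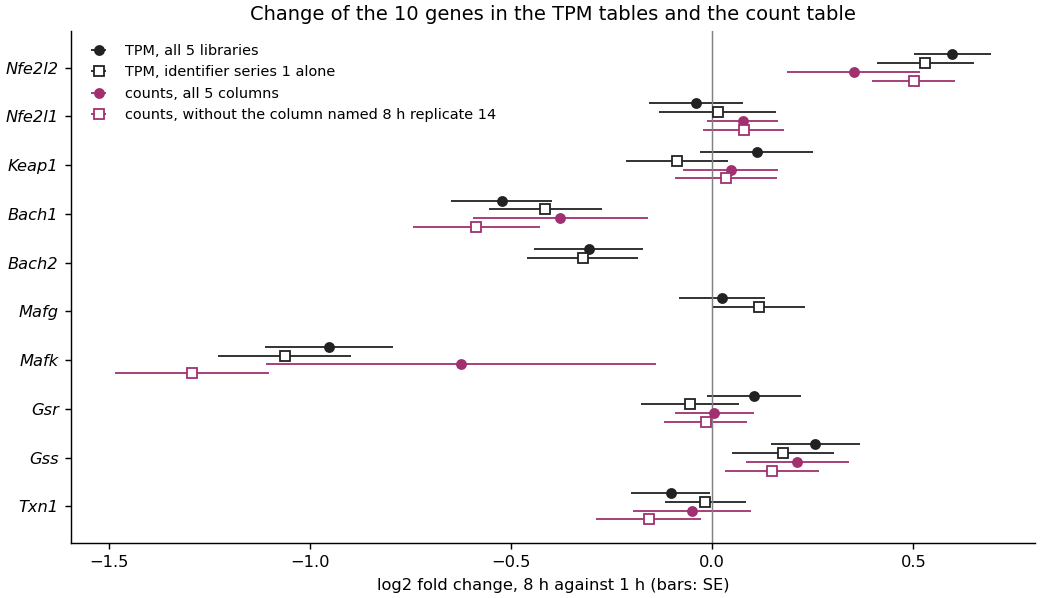
Log2 fold change of 8 h against 1 h with its SE for each of the 10 genes, from the TPM tables (black) with all libraries (filled) or identifier series 1 alone (open), and from the count table (purple) with all columns (filled) or without the column named 8 h replicate 14 (open). Nfe2l2 lies right of 0 and Bach1 left of 0 in the 4 fits drawn, Mafk reaches -1.29 in the counts without that column, and Bach2 and Mafg are in the TPM tables only. Counts with the columns named as series 1 alone are not drawn. They gave 0.0226 for Nfe2l2, -0.0168 for Bach1 and 0.20 for Mafk.

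Mafk (ENSMUSG00000018143, chromosome 5, 139791513 to 139802653, plus strand) encodes a small MAF protein, which lacks an activation domain and serves NRF2 and the BACH proteins alike as partner. By TPM it had the lowest level of the 10 genes, with 7.83 and 7.45 TPM at 1 h and 3.35, 3.14 and 3.94 TPM at 8 h. The groups stood apart by nearly the size of the 8 h level, and 8 h replicate 14 was the lowest of all. The means were 7.64 ± 0.270 TPM (SD, n = 2) and 3.48 ± 0.418 TPM (SD, n = 3), and the log2 fold change, which the pseudocount of 1 makes smaller at this level, was -0.95 ± 0.16 (SE, limma, adjusted p = 0.24). With a pseudocount of 0.1 it was -1.12, and within series 1 it was -1.06 ± 0.17 (SE, limma, adjusted p = 0.393). Adjusted p over 11 alternatives ranged from 0.0136 to 0.794. In the count table Mafk had 232 and 251 reads at 1 h and 124, 270 and 115 reads in the columns named 8 h replicates 13, 14 and 15. The column named 8 h replicate 14 was the highest of all with 18.6 CPM, where the remaining 8 h columns had 6.88 and 6.19 CPM. The log2 fold change from counts was -0.62 ± 0.49 (SE, edgeR, adjusted p = 0.966), it was -1.29 ± 0.19 without that column (edgeR, adjusted p = 0.688), -0.40 when 8 h replicate 13 was left out by column name and -0.35 when 8 h replicate 15 was (edgeR, adjusted p = 0.801 and 0.999), and it turned to 0.20 when the columns named as series 1 were taken alone.

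**Figure D3:**
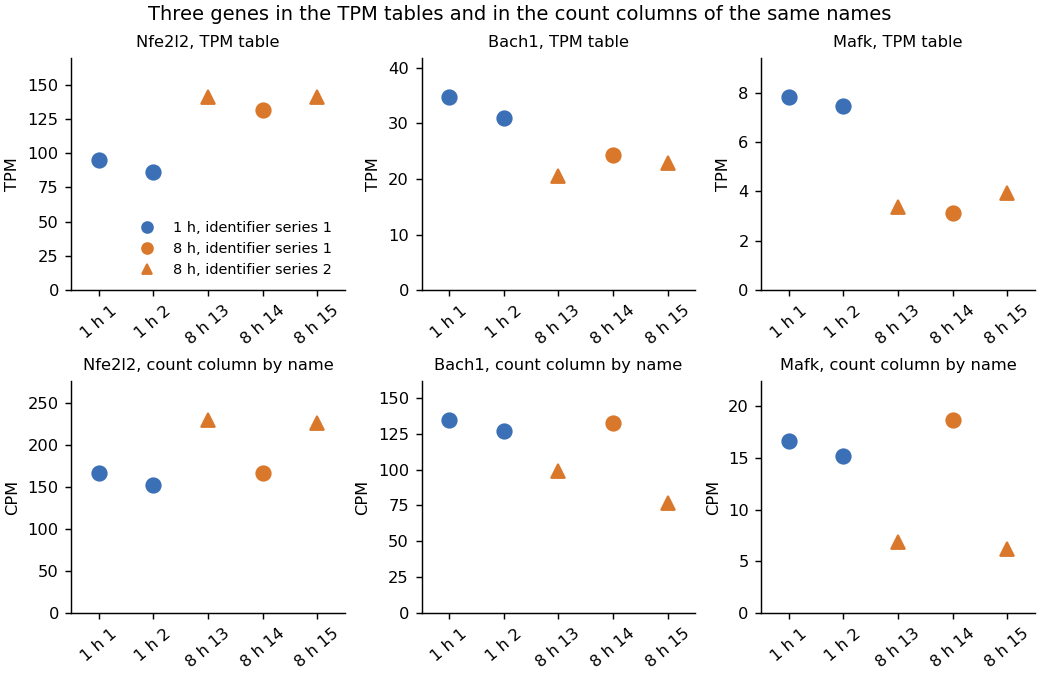
Nfe2l2, Bach1 and Mafk in TPM (top) and CPM (bottom) for each library or count column by name, on axes that start at 0, blue for 1 h and orange for 8 h, with circles for identifier series 1 and triangles for series 2. In the top row 8 h replicate 14 lies with the other 8 h libraries, and in the bottom row the column of that name lies with the 1 h columns, at 166.2, 132.5 and 18.6 CPM.

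Mafg (ENSMUSG00000051510, chromosome 11, 120625117 to 120633600, minus strand), the more abundant small MAF partner, had 50.6 and 50.6 TPM at 1 h, and the 8 h libraries had 52.9, 54.9 and 47.0 TPM, with values of 8 h on both sides of those at 1 h. The log2 fold change was 0.024 ± 0.11 (SE, limma, adjusted p = 0.921), and it was -0.088 after median-ratio scaling. The ratio of Mafg to Mafk was 6.46 and 6.80 at 1 h and 15.8, 17.5 and 11.9 at 8 h. Mafk made up 10.95% and 10.6% of the summed TPM of Maff, Mafg and Mafk at 1 h and 4.87%, 4.65% and 6.14% at 8 h, a share formed after these values had been seen. Mafg overlaps Sirt7 by 124 bases on the same strand, and Sirt7 lay between 15.93 and 17.05 TPM in all libraries.

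The core of the antioxidant response element (letters TGACNNNGC, searched on both strands) was looked for in RefSeq promoter windows of the GRCm38.p6 assembly, each from 250 bases before to 50 bases after a transcription start. Windows were found for 9 of the 10 genes (not Gsr), 13 windows in all, and 3 of them, 1 each of Nfe2l2, Mafk and Mafg, held the core. Of 32851 windows of all genes, 12.4% did. The AP-1 letters TGANTCA, which the core can overlap, were in none of the 13 windows and in 7.81% of all. The sites are shown because they are the stretches where the dimers of these factors could recognise promoters of their own genes, here those of Nfe2l2 (higher at 8 h), Mafk (lower) and Mafg (overlapping). Capitals mark the core, read 5′ to 3′ on the strand of the gene (at chr2:75704885-75704913 minus, chr5:139791513-139791541 plus and chr11:120633751-120633779 minus).
Nfe2l2: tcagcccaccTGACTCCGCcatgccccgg
Mafk: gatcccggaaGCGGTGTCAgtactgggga
Mafg: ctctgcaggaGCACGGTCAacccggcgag
The core of Nfe2l2 starts 240 bases and that of Mafg 222 bases before the RefSeq start. That of Mafk starts 13 bases before it, and in the gene model of the deposited tables this stretch opens the transcribed region. The Mafk and Mafg cores lie in the reverse orientation. A match of letters is not a measurement of binding.

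Txn1 (ENSMUSG00000028367, chromosome 4, 57943373 to 57956411, minus strand), the cytosolic thioredoxin, had the highest level of the 10, at the 98.5th percentile of the genes tested. It had 624.2 and 579.5 TPM at 1 h, compared with 547.8, 594.2 and 538.8 TPM at 8 h. The 8 h replicate 14 lay between the 1 h libraries and the pair of series 2 lay below them, and the log2 fold change was -0.10 ± 0.098 (SE, limma, adjusted p = 0.614). It was -0.018 within series 1. The counts also overlapped, with 465.6 and 439.6 CPM at 1 h and 443.0, 518.0 and 375.6 CPM in the 8 h columns (edgeR, adjusted p = 0.979). The processed copy Txn-ps1 stayed at or below 0.394 TPM. Txn2, the mitochondrial thioredoxin, had 71.3 and 64.2 TPM at 1 h, and the 8 h libraries had 71.5, 94.7 and 82.2 TPM, and the ratio of Txn1 to Txn2 was 8.76 and 9.03 at 1 h and 7.66, 6.28 and 6.55 at 8 h.

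Gsr (ENSMUSG00000031584, chromosome 8, 33652523 to 33698163, plus strand), glutathione reductase, had 58.7 and 54.8 TPM at 1 h, compared with 64.8, 54.5 and 64.2 TPM at 8 h. The pair of series 2 was high and 8 h replicate 14 was the lowest library, and the log2 fold change was 0.10 ± 0.12 (SE, limma, adjusted p = 0.666). The count columns had 111.0 and 105.9 CPM at 1 h with 103.8, 116.1 and 112.7 CPM at 8 h, a difference on the log2 scale of 0.0048 ± 0.099 (SE, edgeR, adjusted p = 0.996). Gss (ENSMUSG00000027610, chromosome 2, 155563181 to 155592810, minus strand), glutathione synthetase, had 28.5 and 27.2 TPM at 1 h, and the 8 h libraries had 35.98, 31.6 and 32.97 TPM. All 8 h values were higher, with 8 h replicate 14 the lowest of them, and the log2 fold change was 0.26 ± 0.11 (SE, limma, adjusted p = 0.408). For Gss it was 0.145 after median-ratio scaling and 0.175 within series 1. The counts gave 0.21 ± 0.13 (SE, edgeR, adjusted p = 0.966), with 35.6 and 38.4 CPM at 1 h and 41.4, 48.4 and 41.4 CPM in the 8 h columns. Gss lies opposite Acss2, an acetyl-CoA synthetase gene on the plus strand that shares 22544 bases with it. Acss2 had 55.0 and 59.3 TPM at 1 h, compared with 124.6, 82.7 and 98.1 TPM at 8 h, and 8 h replicate 14 was the lowest 8 h library for both genes. The libraries were made strand-specific, but whether counting used the strand is not stated in the methods, and the part of Acss2 reads in the Gss values was not tested.

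Across the count table as a whole, edgeR called 0 of 7590 genes (0%), and 0 of the 8 genes it holds of this set. DESeq2 and limma-voom also called 0 of the 8, and with all 3 tools 0 of the 8 had an unadjusted p under 0.05, against 2.62% of all genes with edgeR. Count columns did not overlap between groups for Nfe2l1 and Gss, both higher at 8 h, against 11.6% of all genes, and for none in the lower direction, against 7.05%. Nfe2l1 had 414.1 and 403.1 CPM at 1 h and 441.3, 445.4 and 429.5 CPM in the 8 h columns, with 0.075 ± 0.089 as log2 fold change (SE, edgeR, adjusted p = 0.966), where its TPM overlapped.

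By mean TPM over the 5 libraries the 10 genes stood in the order Txn1 (576.9), Nfe2l2 (119.2), Gsr (59.4), Nfe2l1 (53.8), Mafg (51.2), Keap1 (35.4), Gss (31.2), Bach1 (26.7), Bach2 (14.1) and Mafk (5.14). Ranges over libraries overlapped between the neighbours Gsr and Nfe2l1, Nfe2l1 and Mafg, Keap1 and Gss, and Gss and Bach1, and these pairs cannot be put in order. They did not overlap between the other neighbours in TPM, but the order depended on the length and the measure used. By deposited coverage Bach2 stood below Mafk in every library. By reads per kilobase of joined exons at 1 h, Nfe2l1 stood above Nfe2l2, and Bach1 (304.7 and 339.5) stood in each column above Keap1 (259.7 and 310.2) and Gss (84.2 and 107.4). On that scale the ratio of Gsr to Gss at 1 h was 6.69 and 5.92, against 2.06 and 2.01 by TPM, and levels of different genes are to be read with this limit. The level closest in pattern to Nfe2l2, by the mean absolute difference of log2(TPM + 1) centred on each gene's mean over 5 libraries and among 10274 genes that averaged 5 TPM or more, was that of Tgds (0.018), followed by Zfp329 (0.0323) and Socs5 (0.0342). With 5 values per gene and so many genes compared, such closeness is no measure of shared regulation, which was not tested.

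Other genes that regulate NRF2 and NRF1 were read from a list of 13, of which 11 were tested. Limma called 0 of them and gave an unadjusted p under 0.05 for 2, Ddi2 in the higher direction (9.52% of all genes) and Gsk3b in the lower (2.82%). Groups did not overlap for 2 in the higher direction (23.7% of all genes) and for 3 in the lower (9.43%). Ddi2, a protease known to release active NRF1 from its membrane-bound form, had 12.5 and 11.7 TPM at 1 h, and the 8 h libraries had 16.4, 15.2 and 18.6 TPM, with 0.44 ± 0.14 as log2 fold change (SE, limma, adjusted p = 0.355). Ngly1, the glycanase that acts on NRF1 before Ddi2, had 21.0 and 18.0 TPM at 1 h, compared with 24.1, 21.1 and 23.9 TPM at 8 h (limma, adjusted p = 0.465). Values were lower in every 8 h library for Gsk3b, a kinase that marks NRF2 for degradation apart from KEAP1 (113.1 and 99.6 against 84.4, 88.2 and 91.3 TPM, limma, adjusted p = 0.389), for Sqstm1, whose product p62 sequesters KEAP1 (152.4 and 162.4 against 123.9, 146.9 and 103.0 TPM, limma, adjusted p = 0.42), and for Syvn1, an endoplasmic reticulum ubiquitin ligase (54.1 and 47.95 against 45.1, 47.3 and 28.4 TPM, limma, adjusted p = 0.491). The median log2 fold change of the list was -0.11. Vcp, which extracts NRF1 from the membrane, was its most abundant gene with a mean of 666.3 TPM. The KEAP1 ligase genes Cul3 and Rbx1 had overlapping groups, with log2 fold changes of 0.028 and 0.047. Nfe2, with at most 0.0952 TPM, and Nfe2l3, with at most 1.65 TPM, were near the floor.

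Of 21 NRF2 target genes, 20 were tested, 0 were called by limma and 0 had an unadjusted p under 0.05. Their median log2 fold change was 0.025, and 13 were above 0. Their summed TPM was 4059 to 4078 at 1 h and 3892 to 4097 at 8 h, and these totals overlapped. Groups did not overlap for 1 gene in the higher direction (23.7% of all genes) and 2 in the lower (9.43%). Every 8 h library was higher for Txnrd1, cytosolic thioredoxin reductase (184.8 and 177.7 against 218.8, 187.0 and 236.5 TPM), and lower for Cbr1 (39.9 and 38.97 against 36.2, 32.7 and 35.2 TPM) and Taldo1 (243.5 and 245.9 against 225.9, 234.5 and 216.1 TPM), carbonyl reductase and transaldolase. Ftl1, ferritin light chain, was highest with a mean of 1290 TPM. For some targets 8 h replicate 14 stood nearer to the 1 h libraries, which share its series, than to the 8 h pair of series 2. These were named after their values had been seen. By the names given, the series, Xist and the mitochondrial share go together in these libraries and cannot be told apart. Gsta4, a glutathione transferase, had 50.5 and 44.6 TPM in 8 h replicates 13 and 15, 11.8 TPM in 8 h replicate 14 and 19.8 and 18.9 TPM at 1 h. Gstm1 had 192.7 and 233.3 TPM in that pair, 74.3 TPM in 8 h replicate 14 and 105.9 and 99.7 TPM at 1 h. Nqo1, a quinone reductase widely used as a readout of NRF2, had 6.38 and 5.32 TPM in the pair, 2.53 TPM in 8 h replicate 14 and 2.73 and 2.56 TPM at 1 h. In all 3 cases 8 h replicate 14 lay below both 1 h libraries, for Nqo1 only slightly and at a low level. For Nfe2l2, Bach1 and Mafk, 8 h replicate 14 lay with the other 8 h libraries.

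**Figure D4:**
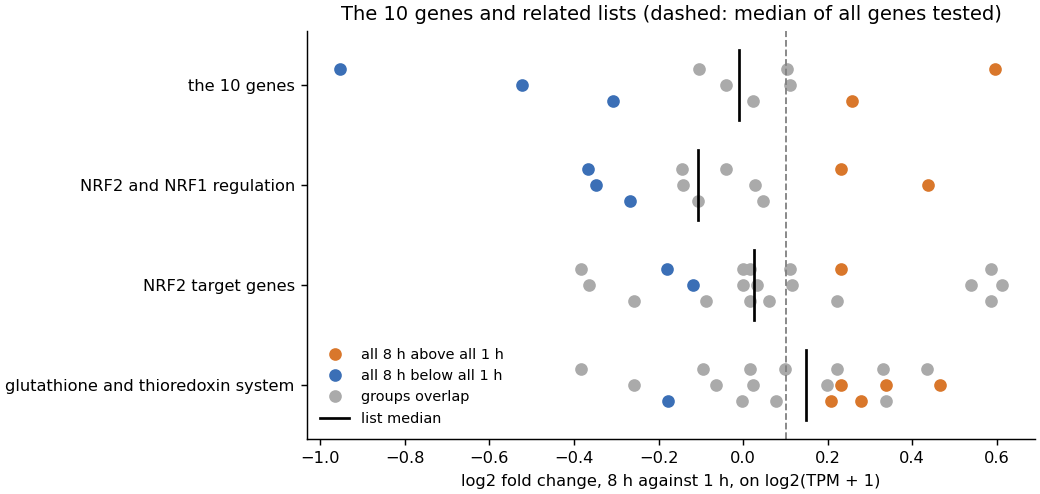
Log2 fold change on log2(TPM + 1) of 8 h against 1 h for the 10 genes and for 3 lists of related genes, 1 point per gene tested, orange where all 8 h libraries lie above both 1 h libraries, blue where all lie below and grey where groups overlap, with list medians as black lines and the median of all genes tested (0.10) dashed. The medians lie between -0.11 and 0.15, and Mafk and Nfe2l2 are the extremes of the first row.

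Of 21 other genes of the glutathione and thioredoxin systems, 5 of them also among the targets above, 20 were tested and 0 were called by limma, with an unadjusted p under 0.05 for 1, Chac2 in the higher direction (9.52% of all genes). The median log2 fold change was 0.15, 14 were above 0, and groups did not overlap for 5 in the higher direction (23.7% of all genes) and 1 in the lower (9.43%). Chac2, a glutathione-degrading cyclotransferase, had 16.9 and 18.1 TPM at 1 h, and the 8 h libraries had 21.3, 22.99 and 22.8 TPM, with 0.34 ± 0.11 as log2 fold change (SE, limma, adjusted p = 0.369). Ggct, an enzyme of the gamma-glutamyl cycle, had 2.38 and 2.15 TPM at 1 h, compared with 2.67, 4.21 and 3.79 TPM at 8 h (limma, adjusted p = 0.416). For Txn2 the adjusted p was 0.441. Ggt7 was lower in each 8 h library, with 27.6 and 28.2 against 24.6, 27.1 and 22.1 TPM (limma, adjusted p = 0.521). Glrx3, an iron-sulphur glutaredoxin, was the most abundant of this list with a mean of 418.8 TPM.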

How the data were processed

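Members and lists were chosen with earlier results of these data known. The authors mapped the strand-specific, poly-A selected reads to GRCm38 with STAR by nf-core/rnaseq and used featureCounts for counting. Raw read counts make up the deposited count table, which is described as filtered (rule not given in the sources used here). Its 0 unassigned columns and 0 rows without a gene need no correction. The authors also deposited, for each library, TPM, FPKM and mean per-base coverage in the layout of StringTie's gene abundance output (tool and version not stated there). The deposited FPKM and coverage served only as checks of TPM. Rows with the same Ensembl gene were summed.

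Libraries of 8 h were compared with those of 1 h by limma 3.58.1 (R 4.3.3) with a mean-variance trend, using log2(TPM + 1) of genes that averaged 1 TPM or more, a scale that understates changes of low genes, and counts by edgeR 4.0.16 (quasi-likelihood, TMM, filterByExpr). Both used Benjamini-Hochberg adjustment over all genes tested, and no covariate. The thresholds were 0.05 for the adjusted p and 1 for the size of the log2 fold change. DESeq2 1.42.0, limma-voom and the settings in the closing section were alternatives. Coverage and reads per kilobase were added after the data had been examined. CPM is scaled to the column total. All 10 members are named, and of each related list the genes that passed, up to 3 per direction with the largest change among those without overlap, and the most abundant gene. Scripts were tested on simulated data. Coordinates are those of the deposited tables.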

Additional observations from a re-analysis of the deposited data

How the results depend on the processing

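No paired analysis was possible because the groups share no replicate number. None of the 10 genes was called in any of the alternatives run, from TPM or counts. Of all genes, limma called 6 from TPM, 0 with no filter on low values (2371 with an unadjusted p under 0.05), 19 with the identifier series as a term, and 0 to 568 when each library was left out. The 568 came without 8 h replicate 14. Leaving out 1 h replicate 1, 1 h replicate 2 or 8 h replicate 15 gave 0 (773, 670 and 856 with an unadjusted p under 0.05), and leaving out 8 h replicate 13 gave 1. In the count table edgeR called 0 genes (199 with an unadjusted p under 0.05), and 145 with the columns named as series 1 alone, which sets the unmatched column against the 1 h columns. The cause was not tested.

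In TPM, Nfe2l2, Gss, Mafk, Bach1, Bach2 and Txn1 kept their direction under all 11 alternatives. Apart from Txn1, the groups of these genes do not overlap. Leaving out a library or taking series 1 alone could therefore not turn their direction. Txn1, whose groups overlap, had a small log2 fold change of -0.10, and -0.018 within series 1. Keap1, Nfe2l1, Mafg and Gsr also had small log2 fold changes, and theirs turned. Median-ratio scaling, which moved the median of all genes from 0.10 to -0.0042, gave -7e-04 for Keap1, -0.0088 for Gsr and -0.088 for Mafg. The series as a term and series 1 alone rest on the same contrast, because series 2 holds no 1 h library. Both gave -0.088 for Keap1, -0.055 for Gsr and 0.014 for Nfe2l1. Coverage in place of TPM gave 0.057 for Nfe2l1. Leaving out 1 library gave -0.15 to 0.067 for Nfe2l1 and -0.021 to 0.0885 for Mafg. From counts, series 1 alone, with the unmatched column as the only one of 8 h, gave 0.20 for Mafk and 0.16 for Txn1. The series as a term, which rests on that same contrast, gave 0.20 and 0.16. Leaving out 1 column gave -0.0059 to 0.12 for Keap1, -0.023 to 0.0471 for Gsr and -0.16 to 0.065 for Txn1. Counts per kilobase in place of TPM moved the 1 h ratios from 2.71 to 2.25 (Nfe2l2 to Keap1), 0.361 to 0.504 (Bach1 to Nfe2l2), 2.04 to 6.31 (Gsr to Gss) and 0.601 to 1.79 (Nfe2l1 to Nfe2l2). Precision is limited by the 2 libraries at 1 h and, for Mafk, by 115 to 270 reads per column.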
